A study of Mus musculus with 4 samples.

Results

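The genes described here encode the respiratory chain and the ATP synthase of the mitochondrion. They were chosen by symbol, as the genes named for subunits and assembly factors of complex I (Ndufa, Ndufb, Ndufc, Ndufs and Ndufv), complex II (Sdha to Sdhd), complex III (Uqcr), complex IV (Cox4 to Cox8) and complex V (Atp5), with the genes of the mitochondrial genome that encode proteins (mt-Nd, mt-Co, mt-Atp and mt-Cytb). Cox7a1 and Cox8b, which are abundant in brown fat, were left out by the same rule. This gave 105 of the 32285 genes in the files, 92 of them nuclear and 13 mitochondrial. Ndufa4 and its paralog Ndufa4l2 carry a complex I name and were counted with complex IV, where the Ndufa4 protein resides.

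The samples were kidney sections of male mice on the C57BL/6J background. Uox_KO mice lack exons 2 to 4 of Uox, the gene of urate oxidase, which degrades uric acid, and serve as a model of hyperuricemia. Control mice are wild type. Each genotype was represented by 2 sections, which the titles assign to separate mice, and the ages are not given in the sources used here. Expression was measured with Visium, an array of barcoded spots that capture polyadenylated RNA, and 1 spot can cover several cells.

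Complexes I to IV pass electrons from NADH and succinate to oxygen and, with the exception of complex II, pump protons, and complex V uses the proton gradient to make ATP. Complexes I, III, IV and V are each built from nuclear subunits, made in the cytosol and imported, and from subunits that the mitochondrion transcribes and translates itself from its own genome, while complex II is nuclear throughout. The proximal tubule and the thick ascending limb, which reabsorb most of the filtered salt, are among the tissues richest in mitochondria and depend on this chain for ATP.

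Molecules were counted by unique identifiers (UMIs). Uox_KO totals were 53897511 and 57230517 UMIs over 2650 and 2590 spots, and Control totals were 93524222 and 107962997 UMIs over 2528 and 3362 spots. Uox itself, which the liver expresses, had 0 UMIs in all 4 sections, which allows at most 0.0278 to 0.0557 CPM (UMIs scaled to a common library total) per section, so it did not check the labels. Spots rich in fat or urothelium markers numbered 260 and 239 in Uox_KO, against 0 and 11 in Control, and spots rich in injured tubule markers numbered 591 and 529 in Uox_KO, against 0 and 0 in Control. All 10 S1 and S2 proximal tubule markers and all 5 red blood cell markers were lower in Uox_KO. All 10 injured tubule, 10 myeloid and 9 stroma and matrix markers were higher. The S3 and glomerulus lists went both ways, with 4 of 8 lower and 3 higher, and 7 of 10 lower and 3 higher. Of all genes tested, 32.5% were lower and 34.6% higher. Myeloid markers took 0.140% and 0.110% of all UMIs in Uox_KO and 0.00974% and 0.00902% in Control, and red blood cell markers 0.0281% and 0.0792% in Uox_KO and 0.535% and 0.502% in Control. The part of these cell types in the results was not tested. In such sections fewer cells of a type and less RNA per cell cannot be told apart. Pairs of sections shared 1861 to 2539 spot barcodes, since Visium slides carry the same barcode set.

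Nuclear respiratory chain transcripts were lower in Uox_KO kidneys. Of the 90 nuclear members that passed the filter on low counts, 73 fell, 3 rose and 14 were not called (edgeR quasi-likelihood test, Benjamini-Hochberg adjusted p under 0.05). Among all 16369 genes tested, 32.5% were lower and 34.6% higher. A lack of overlap between genotypes was common: both Uox_KO sections lay below both Control sections in 42.5% of all genes and above them in 43.1%. The median log2 fold change of the nuclear members was -0.43, against 0.00 over all genes tested. Abundant genes were lower more often as a class: of the 1422 genes that averaged 100 CPM or more, 59.4% were lower and 16.9% higher, with a median of -0.31. The nuclear members at that level gave 65 lower and 0 higher of 79, or 82.3% lower, with a median of -0.45. Past 2-fold, 3 nuclear members were lower (Ndufb4, Ndufa6 and Cox6a2), where 7.83% of all genes were, and 2 were higher (Cox6b2 and Cox4i2), where 19.9% were. Cox7b2 and Cox8c had too few counts to be tested.

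The 13 mitochondrially encoded members did not follow. None fell, 3 rose and 10 were not called by edgeR, with a median of 0.01. mt-Cytb lay just outside the threshold (log2 fold change -0.38, adjusted p 0.05004), and it was the 1 member below Control at an unadjusted p under 0.05. DESeq2 called 1 member lower and 5 higher. Fits with 1 section left out assume that the lone section varies like the 2 of the other genotype, and the mitochondrial sums had an SD of 23094 CPM in Uox_KO and 6752 CPM in Control. In such fits the calls moved: without Uox_KO replicate 2, 6 mitochondrial members were lower, without Uox_KO replicate 1, 6 were higher, and without Control replicate 1 or replicate 2, 1 was higher in either case. Summed over all members, the nuclear transcripts gave 45072 and 49145 CPM in Uox_KO and 63945 and 64589 CPM in Control. Both Uox_KO sections were below both Control sections, and the means differed by -26.7%. The mitochondrial transcripts summed to 128217 and 160876 CPM in Uox_KO and 143389 and 152938 CPM in Control, and here the genotypes overlapped. The Uox_KO replicates differed from each other by more than the Control replicates did.

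The ratio of the nuclear to the mitochondrial sum does not depend on how a library is scaled. It was 0.352 and 0.305 in Uox_KO and 0.446 and 0.422 in Control, a difference of -24.3% between the means with no overlap. Without scaling by TMM, which corrects for differences in RNA composition, the median of all genes stood at 0.27, and the nuclear members moved up alike. On that scale 42 nuclear members were lower and 5 higher, with 17.9% of all genes lower and 49.8% higher, and the nuclear median was -0.17. The mitochondrial median on that scale was 0.27, with 5 members higher.

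**Figure D1:**
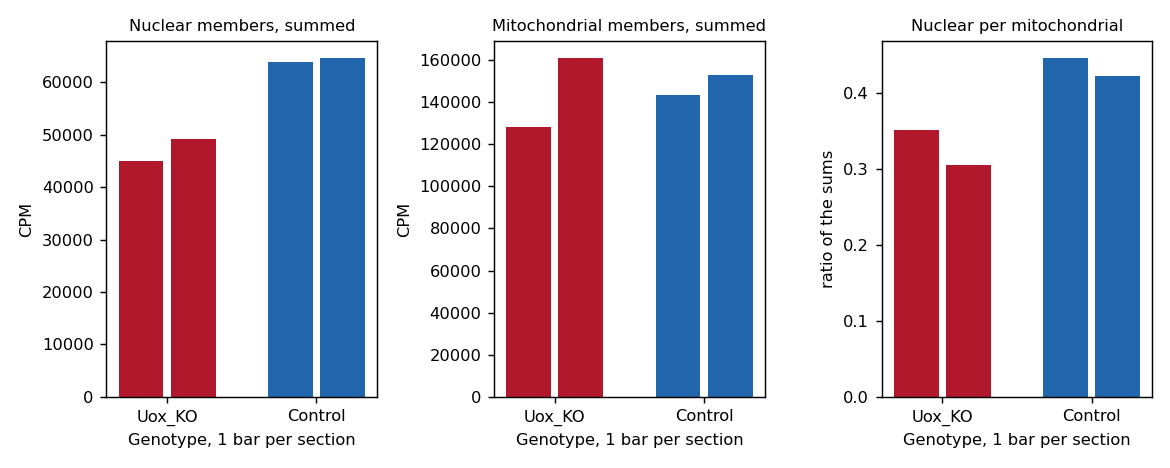
Summed CPM of the nuclear members (left), summed CPM of the 13 mitochondrial members (middle) and the ratio of the sums (right), 1 bar per whole section, Uox_KO in red and Control in blue. The nuclear sums of 45072 and 49145 CPM in Uox_KO lie below the 63945 and 64589 CPM of Control, while the mitochondrial sums overlap.

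Complex I oxidizes NADH. Of its 45 nuclear members, 38 fell and 0 rose. Beside the counts of this and the other complexes stand 32.5% lower among all genes tested. Among genes averaging 100 CPM or more it was 59.4%. The core subunits, which hold the flavin and the iron-sulphur clusters, fell in 6 of 7 cases with a median of -0.34, and the accessory subunits, which surround and stabilize the core, fell in 24 of 30 with a median of -0.43. All 8 assembly factors of the Ndufaf series fell, with a median of -0.43. The largest falls were those of 2 accessory subunits. Ndufb4, in the membrane arm, had 327 and 356 CPM in Uox_KO and 718 and 707 CPM in Control, a log2 fold change of -1.06 ± 0.08 (SE, adjusted p 3.70e-05). Ndufa6 had 457 and 487 CPM in Uox_KO and 973 and 982 CPM in Control, a log2 fold change of -1.05 ± 0.07 (adjusted p 3.65e-05). In both genes the Uox_KO sections held less than any Control section by far more than the replicates differed. Among the core subunits, Ndufs1 had 145 and 168 CPM in Uox_KO and 235 and 214 CPM in Control (log2 fold change -0.52). Ndufaf7, a mitochondrial methyltransferase, had the largest fall among the assembly factors, with 21.0 and 21.8 CPM in Uox_KO and 30.8 and 32.5 CPM in Control (log2 fold change -0.57).

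Not all complex I subunits shared the fall. Ndufa2, an accessory subunit of the NADH-oxidizing arm, had 868 and 888 CPM in Uox_KO and 924 and 944 CPM in Control and was not called (log2 fold change -0.09). Ndufs6 had 591 and 614 CPM in Uox_KO and 603 and 602 CPM in Control, so that the genotypes overlapped, and it was not called (adjusted p 0.980). Ndufa3 was the 1 nuclear complex I gene above Control in both Uox_KO sections, at 595 and 640 CPM in Uox_KO and 576 and 568 CPM in Control, and was not called. Ndufa13, also named GRIM-19, lay between these ends of the range, at 538 and 559 CPM in Uox_KO and 864 and 906 CPM in Control, a log2 fold change of -0.69.

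Promoter windows are shown for Ndufb4 and Ndufa6, for Cox6b2, the member with the largest rise, and for Ndufs6, the member nearest to no change, to set what their start sites hold beside how they moved. They were chosen after their values were seen. All 92 nuclear members matched a RefSeq gene of GRCm38.p6, 2 of them through a synonym, on 19 chromosomes, and 75 had a window of 250 bases before to 50 bases after the start. The motif of NRF1, an activator of respiratory chain genes, reads GCGCA, any base and GCGC, and occurred on either strand in the windows of 19 of the 75 members (25.3%), against 5.19% of the 27025 genes with a window. The YY1 motif AAGATGGCG occurred in 10.7% of the members and 1.64% of all genes, the ETS motif CCGGAAGT of GABPA in 6.67% and 4.31%, and CAAGGTCA, bound by ESRRA, in 5.33% and 1.76%. The motifs differ from one another in their letters, and each window was counted once per motif. The median log2 fold change was -0.50 for the 19 tested members with the NRF1 motif and -0.41 for the 55 without, -0.37 and -0.43 for YY1, -0.45 and -0.41 for GABPA, and -0.46 and -0.41 for ESRRA. The CCAAT box occurred in 44% of the members and 41.1% of all genes, with medians of -0.48 with it and -0.37 without. Capitals mark matches to the other motifs, not the CCAAT box.
Ndufb4 (chr16:37654319-37654618, minus strand): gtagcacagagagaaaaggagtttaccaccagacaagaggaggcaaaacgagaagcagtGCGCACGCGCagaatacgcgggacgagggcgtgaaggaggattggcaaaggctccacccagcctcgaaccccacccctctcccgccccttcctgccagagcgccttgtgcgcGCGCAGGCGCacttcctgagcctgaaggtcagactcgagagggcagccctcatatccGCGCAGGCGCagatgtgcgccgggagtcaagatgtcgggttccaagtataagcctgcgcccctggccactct
Ndufa6 (chr15:82354242-82354541, minus strand): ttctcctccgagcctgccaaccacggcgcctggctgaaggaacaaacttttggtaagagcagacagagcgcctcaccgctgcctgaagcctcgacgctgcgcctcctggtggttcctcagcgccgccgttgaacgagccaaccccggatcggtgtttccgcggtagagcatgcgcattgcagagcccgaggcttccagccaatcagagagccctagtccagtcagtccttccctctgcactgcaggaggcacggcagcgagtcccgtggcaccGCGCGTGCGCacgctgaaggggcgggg
Cox6b2 (chr7:4753045-4753344, minus strand): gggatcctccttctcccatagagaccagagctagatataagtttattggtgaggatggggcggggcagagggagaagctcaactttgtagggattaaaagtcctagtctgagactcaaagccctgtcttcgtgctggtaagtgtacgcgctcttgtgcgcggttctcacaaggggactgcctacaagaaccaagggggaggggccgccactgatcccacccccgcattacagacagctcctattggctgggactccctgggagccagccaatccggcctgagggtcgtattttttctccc
Ndufs6 (chr13:73328433-73328732, minus strand): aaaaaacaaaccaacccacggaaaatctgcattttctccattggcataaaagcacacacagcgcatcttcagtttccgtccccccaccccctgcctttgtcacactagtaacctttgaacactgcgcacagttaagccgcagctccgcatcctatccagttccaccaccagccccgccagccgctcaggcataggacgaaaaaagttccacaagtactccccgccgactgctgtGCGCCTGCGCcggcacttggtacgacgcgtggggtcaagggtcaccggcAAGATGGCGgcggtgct
The Ndufb4 window holds 3 NRF1 matches and the Ndufa6 window 1. The Ndufs6 window, of a gene that was not called in whole sections, holds 1 NRF1 match and 1 YY1 match, and that of Cox6b2 holds none of the motifs marked. A match is a string of letters and not a measured binding site.

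Complex II is the succinate dehydrogenase shared with the tricarboxylic acid cycle, and all 4 of its subunits fell. Their median of -0.73 was lower than that of any other complex. Sdha, the flavoprotein, had 369 and 406 CPM in Uox_KO and 638 and 617 CPM in Control (log2 fold change -0.70, adjusted p 0.00027). Sdhb, the iron-sulphur subunit, had 251 and 294 CPM in Uox_KO and 457 and 462 CPM in Control (-0.75, adjusted p 0.000358). The membrane anchors were lower as well. Sdhc had 276 and 298 CPM in Uox_KO and 429 and 400 CPM in Control (-0.53), and Sdhd had 133 and 148 CPM in Uox_KO and 246 and 244 CPM in Control (-0.80). For all 4, both Uox_KO sections lay below both Control sections, where 42.5% of all genes tested did. Their sum differed by -37.8% between the means.

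Complex III carries electrons to cytochrome c. Of its 8 nuclear members 7 fell, with a median of -0.39. Uqcrc2, a core protein, had 234 and 254 CPM in Uox_KO and 409 and 387 CPM in Control (log2 fold change -0.71). Uqcrb had 336 and 400 CPM in Uox_KO and 577 and 598 CPM in Control (-0.68). Uqcrfs1, the Rieske iron-sulphur protein, fell by 0.60 on the log2 scale. The small subunits Uqcr11 and Uqcr10 fell by 0.33 and 0.24, Uqcr10 lying at 0.02 on the scale without TMM, where all genes had a median of 0.27. Uqcrq, with 1283 and 1402 CPM in Uox_KO and 1492 and 1572 CPM in Control, was not called (-0.19).

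Complex III was the complex in which nuclear and mitochondrial transcripts were lower by a similar amount. Its 8 nuclear members summed to -22.3% and its single mitochondrial transcript, mt-Cytb, to -23.1% relative to Control. mt-Cytb had 15231 and 18452 CPM in Uox_KO and 20668 and 23122 CPM in Control. The nuclear to mitochondrial ratio of complex III was 0.373 and 0.332 in Uox_KO and 0.362 and 0.334 in Control, which overlapped. The same ratio was lower in Uox_KO without overlap for complex I (-27.8%), complex IV (-27.8%) and complex V (-21.9%). Whether complex III differed from the others in this was not tested.

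Complex IV reduces oxygen and was the only complex with nuclear members that rose. Of 16 tested, 9 fell (56.25%) and 3 rose, with a median of -0.37. Of all genes averaging 100 CPM or more, 59.4% were lower and 16.9% higher. Cox6c had 1675 and 1853 CPM in Uox_KO and 2598 and 2678 CPM in Control (log2 fold change -0.58). In none of the called subunits did the genotypes overlap, which was common: of all genes tested, 42.5% lay below without overlap and 43.1% above. Ndufa4 had 1362 and 1482 CPM in Uox_KO and 2132 and 2170 CPM in Control (-0.60), and Cox4i1 fell by 0.38, Cox8a by 0.59, Cox7b by 0.56 and Cox7a2 by 0.70. Cox6a1 (-0.21) and Cox6b1 (-0.15), the ubiquitous forms of their subunits, were not called. Cox7a2l, which takes part in the assembly of supercomplexes, had 173 and 163 CPM in Uox_KO and 179 and 193 CPM in Control and was not called either.

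Several complex IV subunits exist as paralogs used in different tissues, and the 3 rises were all among these. Cox6b2, known from testis as the alternative to Cox6b1, had 34.4 and 38.4 CPM in Uox_KO and 9.03 and 8.37 CPM in Control. This was the largest rise among the members, a log2 fold change of 2.06 ± 0.08 (adjusted p 4.24e-06), and rests on 2068 and 2365 UMIs in Uox_KO and 768 and 828 UMIs in Control. Its partner Cox6b1 had 708 and 781 CPM in Uox_KO and 827 and 822 CPM in Control. Cox4i2, an alternative to Cox4i1 known from lung, had 1.85 and 1.95 CPM in Uox_KO and 0.647 and 0.799 CPM in Control (1.38), from 55 to 120 UMIs per section. Ndufa4l2, which responds to hypoxia, had 8.52 and 8.44 CPM in Uox_KO and 7.05 and 6.42 CPM in Control (0.33). Cox6a2, the form of heart and skeletal muscle, went the other way at 0.982 and 1.07 CPM in Uox_KO and 2.63 and 2.02 CPM in Control (-1.18). Of 12 hypoxia response genes listed, 4 were higher and 4 lower, where 34.6% of all genes tested were higher and 32.5% lower. The other paralogs, Cox7b2 and Cox8c, were among the members too low to test.

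Complex V is the ATP synthase. Of its 17 nuclear members 15 fell and 0 rose, with a median of -0.53. Atp5b, the catalytic subunit, had 1533 and 1722 CPM in Uox_KO and 2773 and 2702 CPM in Control (log2 fold change -0.75). Atp5a1 had 1274 and 1407 CPM in Uox_KO and 2030 and 2047 CPM in Control (-0.60). The largest falls were those of Atp5f1 and Atp5j. Atp5f1, the b subunit of the peripheral stalk, had 521 and 544 CPM in Uox_KO and 938 and 916 CPM in Control (-0.80). Atp5j had 644 and 645 CPM in Uox_KO and 1088 and 1110 CPM in Control (-0.77). Of the 3 genes that encode an identical mature c subunit of the membrane rotor, Atp5g2 fell by 0.64, Atp5g1 by 0.46 and Atp5g3 by 0.29. Atp5e, the small epsilon subunit of the rotor stalk, fell by 0.27, and Atp5k and Atp5o were not called.

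**Figure D2:**
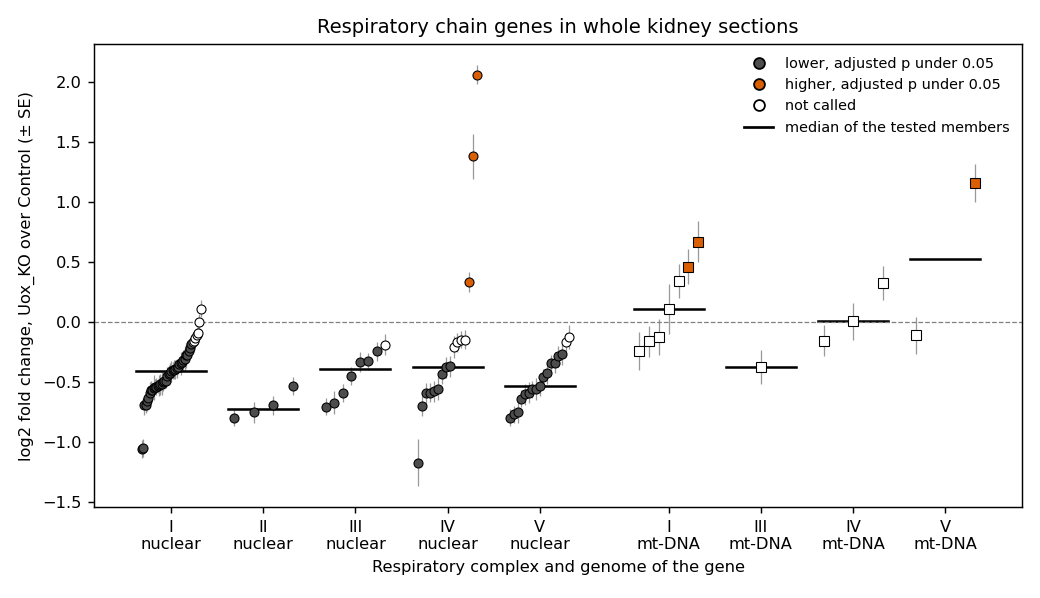
Log2 fold change of each tested member in whole sections (Uox_KO over Control, y axis, ± SE), by complex and genome (x axis), with filled symbols for members called by the edgeR test and a line at each median. Nuclear medians lie between -0.73 (complex II) and -0.37 (complex IV), and the 3 nuclear members above 0 that were called belong to complex IV.

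The mitochondrial transcripts differed among themselves. mt-Atp8 had 66.4 and 68.1 CPM in Uox_KO and 35.7 and 24.6 CPM in Control (log2 fold change 1.16 ± 0.16, adjusted p 0.000669). mt-Nd3 had 4682 and 6592 CPM in Uox_KO and 3748 and 3332 CPM in Control (0.67, adjusted p 0.0110), and mt-Nd4l had 98.2 and 135 CPM in Uox_KO and 89.9 and 79.9 CPM in Control (0.46, adjusted p 0.0277). These are the transcripts of small hydrophobic subunits of complexes V and I. mt-Nd1 (0.34) and mt-Co2 (0.32) were above Control in both Uox_KO sections and were not called. mt-Nd4 (-0.24), mt-Nd2 (-0.13), mt-Nd5 (-0.16), mt-Atp6 (-0.11), mt-Co3 (0.01) and mt-Nd6 (0.11) overlapped between genotypes, and mt-Co1 (-0.16) did not overlap and was not called.

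As shares of the UMIs of the 13 mitochondrial members, which no scaling affects, 5 transcripts were above Control in both Uox_KO sections, 6 below and 2 overlapped. The shares of a section add up to a whole, so higher shares of some transcripts lower those of others. In CPM 5 members lay above without overlap and 2 below, where 43.1% of all genes tested lay above and 42.5% below. mt-Nd1 made up 6.83% and 7.003% in Uox_KO and 5.44% and 5.23% in Control. mt-Co2 made up 13.2% and 13.3% in Uox_KO and 10.5% and 10.1% in Control. These shares were closer between replicates than the CPM were. mt-Cytb made up 11.9% and 11.5% in Uox_KO and 14.4% and 15.1% in Control, and mt-Nd4 6.54% and 7.09% in Uox_KO and 7.92% and 7.90% in Control. The share of mt-Atp8 was 0.0518% and 0.0423% in Uox_KO and 0.0249% and 0.0161% in Control, with Wilson 95% intervals from 0.0411 to 0.0534% in Uox_KO and from 0.0154 to 0.0258% in Control, which cover counting error only. By the RefSeq annotation of GRCm38.p6, mt-Atp8 (MT, 7766 to 7969) shares 43 bases with mt-Atp6, mt-Nd4l (9877 to 10173) shares 7 bases with mt-Nd4, and mt-Nd5 shares 14 with mt-Nd6. The counts of mt-Atp8 and mt-Atp6, and those of mt-Nd4l and mt-Nd4, may include reads from a shared transcript.

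**Figure D3:**
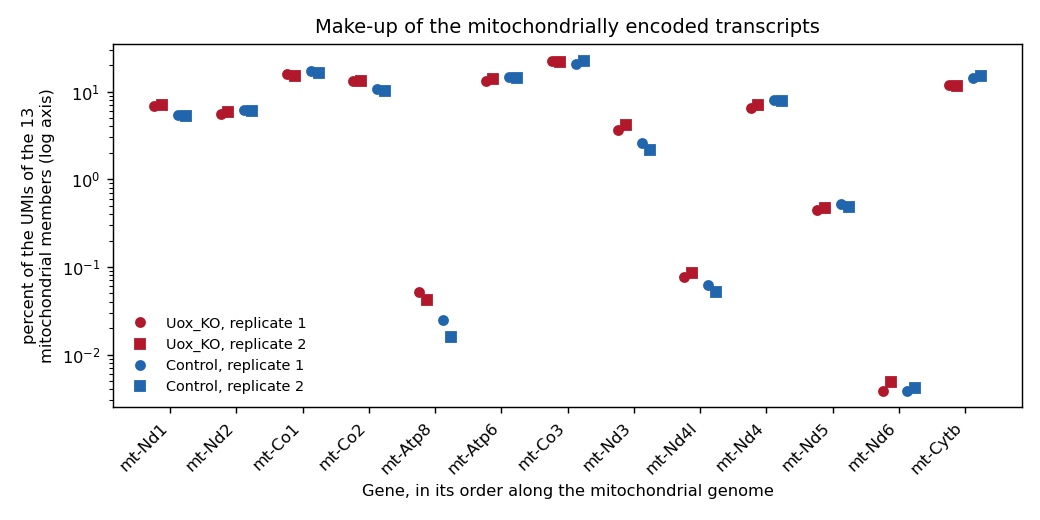
Share of each mitochondrial transcript among the UMIs of the 13 mitochondrial members (percent, log axis), genes in their order along the mitochondrial genome, 1 point per section, Uox_KO in red and Control in blue. mt-Nd1, mt-Co2, mt-Atp8, mt-Nd3 and mt-Nd4l lie higher in both Uox_KO sections, and mt-Cytb and mt-Nd4 lower.

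Whole sections mix the segments of the nephron, so the comparison was repeated within 6 sets of spots, each holding the spots richest in the markers of a segment. The sets are ranges of a marker score and not cell types. Spots within 2 percentiles of the threshold numbered 183 and 168 in Uox_KO and 209 and 304 in Control. A set held 234 to 401 spots in a Uox_KO section and 221 to 566 in a Control section.

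In spots rich in S1 and S2 markers, the convoluted proximal tubule, the nuclear sums differed little and the mitochondrial ones were higher in Uox_KO. Of 89 nuclear members tested 32 fell and 14 rose, where 22.5% of all genes tested there were lower and 25.7% higher, and the median was -0.08. Their sum was 51102 and 53286 CPM in Uox_KO and 53727 and 55037 CPM in Control, a difference of -4.02%. Of the 13 mitochondrial members 12 rose, with a median of 0.49, and their sum was 176220 and 223700 CPM in Uox_KO and 140851 and 148440 CPM in Control. The exception was mt-Cytb (0.17). The rises of nuclear members included Ndufs6 (0.47), Ndufa3 (0.44), Ndufa10 (0.39), Ndufa2 (0.37) and Uqcrq (0.30), most of which were not called in whole sections. Atp5g3 had 1358 and 1502 CPM in Uox_KO and 1202 and 1163 CPM in Control (0.27, adjusted p 0.00310). Ndufb4 (-0.55), Ndufa6 (-0.67), Sdhd (-0.49) and Atp5g2 (-0.61) fell here too. Without Control replicate 2, 20 nuclear members were called lower, at a median of -0.09, and DESeq2 called 5 mitochondrial members higher. S1 and S2 markers themselves took 0.800% and 0.790% of the UMIs of these spots in Uox_KO and 1.16% and 1.13% in Control. Distal convoluted and connecting tubule markers took 0.0522% and 0.141% in Uox_KO and 0.361% and 0.502% in Control. Injured tubule markers took 0.390% and 0.330% in Uox_KO and 0.0604% and 0.0582% in Control. The part of these differences in the result was not tested.

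Spots rich in markers of S3, the straight proximal tubule, were similar, with 38 nuclear members lower and 3 higher of 90 (median -0.18, background 23.1% lower and 25.2% higher). There 5 mitochondrial members rose, and their sum was 135386 and 174760 CPM in Uox_KO and 119952 and 128333 CPM in Control. S3 markers themselves took 0.442% and 0.372% of the UMIs of these spots in Uox_KO and 0.616% and 0.584% in Control. Of the 8 S3 markers, 4 were lower and 3 higher in whole sections, with log2 fold changes from -2.05 to 6.31. The score that set these spots thus drew on markers that moved in different directions. Injured tubule markers took 0.579% and 0.402% in Uox_KO and 0.0278% and 0.0297% in Control, and myeloid markers 0.0821% and 0.0466% in Uox_KO and 0.00821% and 0.00741% in Control. Their part in the result was not tested. Without Control replicate 1 or 2, 9 and 7 nuclear members were called lower, at medians of -0.17 and -0.19, and 9.88% and 8.75% of all genes were called lower in these fits. In either case 2 mitochondrial members were called higher, and without Uox_KO replicate 1, 12 were.

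The thick ascending limb and collecting duct showed larger falls. In the thick limb spots 75 of 89 nuclear members fell and 3 rose (median -0.57, background 24% lower and 26% higher), and the nuclear sum was 42788 and 50530 CPM in Uox_KO and 69777 and 69919 CPM in Control. In the collecting duct spots 68 of 90 fell and 3 rose (median -0.60, background 20.9% lower and 23.5% higher), with a nuclear sum of 39478 and 49085 CPM in Uox_KO and 66200 and 68334 CPM in Control. In each the mitochondrial sums overlapped and mt-Atp8 was the 1 mitochondrial member called. Injured tubule markers made up 1.05% and 1.02% of the UMIs in the thick limb spots and 0.928% and 0.862% in the collecting duct spots of Uox_KO, against 0.0606% and 0.0653%, and 0.0897% and 0.0939%, in Control. In the thick limb spots S1 and S2 markers took 0.244% and 0.320% in Uox_KO and 0.597% and 0.575% in Control. In the collecting duct spots they took 0.248% and 0.322% in Uox_KO and 0.750% and 0.733% in Control. Distal markers in the collecting duct spots took 0.246% and 1.42% in Uox_KO and 1.08% and 1.33% in Control. Myeloid markers were higher in both Uox_KO sections in each set. The part of these differences in the falls was not tested. With the spots rich in injury, fat or urothelium markers left out, 67 nuclear members fell in the thick limb and 56 in the collecting duct. Without Control replicate 1 or 2, 30 members were called lower in either case in the thick limb, at medians of -0.59 and -0.57, with 13.2% of all genes called lower in each fit. In the collecting duct 22 and 14 were called lower, at medians of -0.61 and -0.58, with 10.7% and 10.5% of all genes. A stricter choice of spots gave 36 in the collecting duct. Without Uox_KO replicate 1, 5 mitochondrial members rose in each of the 2 sets.

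In spots rich in distal convoluted and connecting tubule markers, 57 of 89 nuclear members fell and 1 rose (median -0.38, background 20.5% lower and 21.2% higher), while 5 mitochondrial members rose and 0 fell. The nuclear sum was 51134 and 55177 CPM in Uox_KO and 68099 and 70390 CPM in Control, and the mitochondrial sum was 177548 and 207034 CPM in Uox_KO and 151157 and 156967 CPM in Control. The nuclear sum was below Control and the mitochondrial sum above it in both sections. The distal markers took 1.89% and 3.85% of the UMIs of these spots in Uox_KO and 2.83% and 3.49% in Control, so that Uox_KO replicate 1 lay lowest. Injured tubule markers took 0.772% and 0.647% in Uox_KO and 0.130% and 0.141% in Control, and myeloid markers 0.0831% and 0.0777% in Uox_KO and 0.0102% and 0.00870% in Control. Their part in the result was not tested. Without Control replicate 1 or 2, 30 and 23 nuclear members were called lower, at medians of -0.43 and -0.36, with 14.9% and 14.6% of all genes. In either case 3 mitochondrial members were called higher, and without Uox_KO replicate 1, 12 were.

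The largest falls were in spots rich in glomerulus markers. There 86 of 90 nuclear members fell and 2, Cox6b2 and Cox4i2, rose (median -1.07, background 31% lower and 32.4% higher). The nuclear sum was 32587 and 31246 CPM in Uox_KO and 66590 and 67333 CPM in Control, a difference of -52.3%. Mitochondrial members fell as well, 11 of 13 with a median of -0.81, and mt-Atp8 and mt-Nd3 were not called. Their sum was 89012 and 85462 CPM in Uox_KO and 138845 and 147580 CPM in Control. The depth and make-up of these spots also differed by genotype. In Uox_KO 379 and 370 spots held 3295182 and 3557705 UMIs. In Control 270 and 386 spots held 7386833 and 9236895 UMIs. S1 and S2 markers took 0.304% and 0.298% of the UMIs in Uox_KO and 0.770% and 0.763% in Control, myeloid markers 0.294% and 0.314% in Uox_KO and 0.0136% and 0.0139% in Control, and stroma and matrix markers 0.347% and 0.339% in Uox_KO and 0.0225% and 0.0195% in Control. The glomerulus markers themselves took 0.101% and 0.119% in Uox_KO and 0.0862% and 0.0921% in Control. Without the spots rich in injury, fat or urothelium markers, 86 nuclear members fell in the glomerulus set again. The part of the depth and of the other cell types in the result was not tested.

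**Figure D4:**
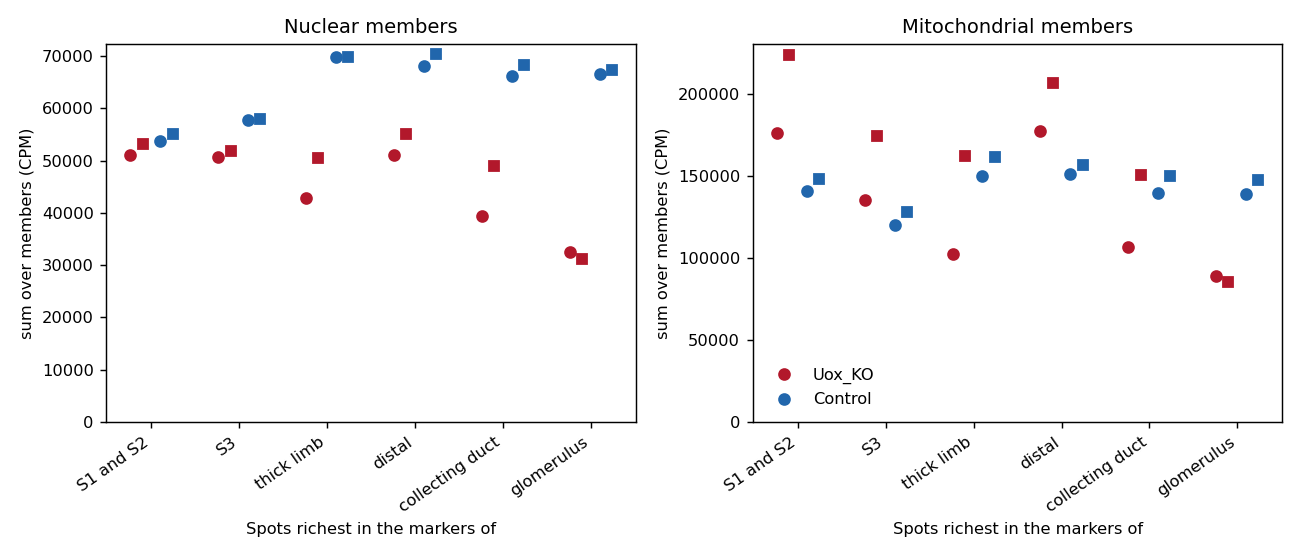
Sums over the nuclear members (left) and the mitochondrial members (right) in CPM (y axis) in 6 sets of spots (x axis), 1 point per section, Uox_KO in red and Control in blue, with circles for replicate 1 and squares for replicate 2. Nuclear sums in Uox_KO lie below Control in each set, most in the glomerulus set, and mitochondrial sums lie above Control in the S1 and S2, S3 and distal sets.

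The genotype difference itself differed between the sets of spots. In 1 fit over the 6 sets with the mouse as a block, 83 of 90 nuclear members and all 13 mitochondrial members were called for a region by genotype difference (edgeR quasi-likelihood F test, adjusted p under 0.05), against 39.2% of the 14690 genes tested. Of the 88 nuclear members tested in every set, 86 had their lowest log2 fold change in the glomerulus spots and 71 their highest in the S1 and S2 spots. All 13 mitochondrial members had their lowest in the glomerulus spots and 11 their highest in the S1 and S2 spots. How often all genes tested had these extremes was not counted, so the counts cannot be called particular to the members. Atp5g3 gave the smallest adjusted p (8.25e-10), at 0.27 in S1 and S2 spots and -1.01 in glomerulus spots, where it had 689 and 716 CPM in Uox_KO and 1458 and 1377 CPM in Control. Among mitochondrial members mt-Co1 gave the smallest (1.37e-07), at 0.27 in S1 and S2 spots and -1.02 in glomerulus spots. The 7 nuclear members not called were Cox7a2l, Ndufa4l2, Cox4i2, Cox6a2 and the assembly factors Ndufaf3, Ndufaf5 and Ndufaf7. Cox7a2l lay between -0.22 and -0.04 in all 6 sets.

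The nuclear to mitochondrial ratio was lower in both Uox_KO sections than in both Control sections in all 6 sets. The means differed by -18.7% in the thick limb spots, -21.8% in the glomerulus spots, -25.1% in the collecting duct spots, -28.1% in the S3 spots, -29.8% in the S1 and S2 spots and -38.3% in the distal spots. In the distal spots, the ratio was 0.288 and 0.267 in Uox_KO and 0.451 and 0.448 in Control. In the glomerulus spots it was 0.366 and 0.366 in Uox_KO and 0.480 and 0.456 in Control. For complex III alone the ratio overlapped between genotypes in 5 of the 6 sets and was lower in the distal set.

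Cox6b2 rose in every set. Its log2 fold change was 2.91 in the S1 and S2 spots and 2.75 in the S3 spots, and between 1.26 and 1.69 in the others. In the S1 and S2 spots it had 56.3 and 59.7 CPM in Uox_KO and 8.03 and 7.42 CPM in Control, and in the glomerulus spots 37.7 and 37.97 CPM in Uox_KO and 13.2 and 12.4 CPM in Control. The difference between sets had an adjusted p of 5.89e-08.

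Single spots were compared by the percent of their UMIs that the members took, without any scaling. The nuclear share of the median spot was 4.63% and 4.88% in Uox_KO and 5.65% and 5.73% in Control. Control spots were alike: their nuclear share at the 95th percentile was 1.39 and 1.45 times that at the 5th, while in Uox_KO this ratio was 2.33 and 2.50. For the mitochondrial share the ratio was 5.74 and 5.99 in Uox_KO and 1.89 and 2.20 in Control. Of the Uox_KO spots, 68.2% and 60.3% fell below 5.09%, the 5th percentile of all Control spots for the nuclear share (Wilson 95% intervals 66.4 to 69.9% and 58.4 to 62.1%, over spots, which are not replicates). The mitochondrial share of Uox_KO spots left the range of Control on both sides: 26.8% and 19.1% of them were below the Control 5th percentile of 9.35%, and 17.7% and 36.6% above the Control 95th percentile of 19.4%. The median spot of at least 500 UMIs held 16687 and 19599.5 UMIs in Uox_KO, against 37386 and 32038.5 UMIs in Control.

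**Figure D5:**
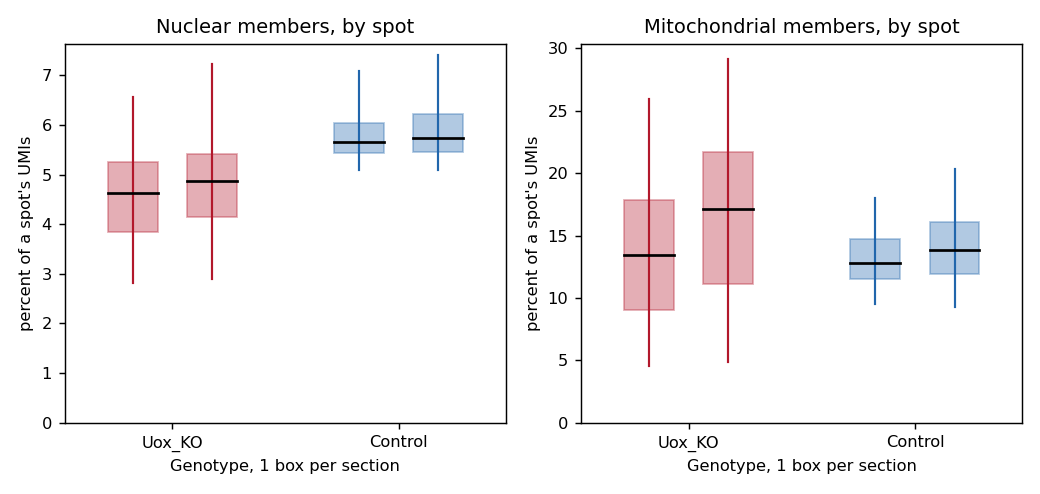
Percent of a spot's UMIs taken by the nuclear members (left) and the mitochondrial members (right), 1 box per section with the median, the quartiles as the box and the 5th to 95th percentile as the line. Uox_KO spots (red) spread over a wider range than Control spots (blue), with nuclear medians of 4.63% and 4.88% in Uox_KO and 5.65% and 5.73% in Control.

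Spots of each section were then split into 4 bins of equal size by their share of injured tubule markers, with fat and urothelium rich spots left out. From the lowest to the highest bin, the median nuclear share in Uox_KO replicate 1 was 5.04, 4.57, 4.50 and 4.31%, and in replicate 2 it was 5.15, 4.82, 4.70 and 4.45%. The median mitochondrial share was 16.7, 13.5, 12.5 and 9.90% in replicate 1 and 20.6, 17.2, 15.7 and 12.3% in replicate 2. Both shares were thus lower in the Uox_KO bins with more injury markers, and the make-up of these bins differed as well. The median share of S1 and S2 markers went from 0.606 to 0.223% in replicate 1 and from 0.642 to 0.256% in replicate 2. Cytosolic ribosomal proteins went from 5.72 to 9.17% in replicate 1 and from 5.01 to 8.31% in replicate 2. The part of make-up and of injury in the shares was not tested. In the lowest bin the nuclear share was below that of the lowest bin in Control, 5.53 and 5.51%, and the mitochondrial share above it, 11.9 and 13.01%. The bins were set within each section and were not matched for injury. The median share of injured tubule markers was 0.224 and 0.204% in the lowest Uox_KO bin and 0.0236 and 0.0244% in the lowest Control bin. In the highest Control bin it was 0.112 and 0.124%. In Control the highest bin had a nuclear share of 5.96 and 6.34% and a mitochondrial share of 14.0 and 14.6%, both above the lowest bin. Uox_KO spots rich in fat or urothelium markers had median nuclear shares of 5.12 and 6.35%, above the Uox_KO spots without such markers or injury markers, at 4.72 and 4.92%. With the fat and urothelium rich spots left out of whole sections, 84 nuclear members fell, and with the injury rich spots left out as well, 71 fell.

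Other genes of the mitochondrion were measured beside the members. Among all genes tested 32.5% were lower and 34.6% higher, and among those averaging 100 CPM or more 59.4% and 16.9%. Of the mitochondrial ribosomal proteins, which translate the 13 mitochondrial messengers, 61 of 78 fell and 1 rose (median -0.36), against 26 lower and 8 higher of 80 cytosolic ribosomal proteins (median -0.11). Of 40 assembly factors outside the rule 26 fell and 2 rose, with Coa6 (-1.01) and Cox20 (-0.95), which act on complex IV, and Tmem126b (-0.76), which acts on complex I, giving the smallest p. Cycs, cytochrome c, had 466 ± 62.5 CPM in Uox_KO and 958 ± 0.762 CPM in Control (SD, n = 2 each), a log2 fold change of -1.04, and Cyc1, the complex III cytochrome that lies outside the name rule, fell by 0.36. Mitochondrial carriers and outer membrane proteins gave 21 lower of 24, among them Slc25a5, an ADP/ATP carrier (-1.003). In the tricarboxylic acid cycle 11 of 18 fell, with Idh2 at -1.11, Suclg2 at -1.22 and Dld at -0.83, while citrate synthase, Cs, was not called (0.18). The vacuolar proton pump, a related rotary enzyme outside mitochondria, gave 15 lower and 1 higher of 21.

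Regulators of these genes moved in different directions. The shares over all genes tested, 32.5% lower and 34.6% higher, apply to the counts here as well. Of 16 listed regulators of mitochondrial biogenesis 7 fell and 2 rose, with a median of -0.06. The 2 that rose were Pprc1 (0.83), a coactivator related to Ppargc1a, and Prkaa1 (0.45), a catalytic subunit of AMP-activated kinase. Prkaa2, the other catalytic subunit, fell by 0.50, with 59.5 and 61.4 CPM in Uox_KO and 91.6 and 79.8 CPM in Control. Gabpa fell by 0.53. Ppargc1a, the coactivator of the pathway, had 16.8 ± 1.74 CPM in Uox_KO and 28.6 ± 0.853 CPM in Control (log2 fold change -0.77), and the nuclear receptors Esrra and Esrrb, its partners, fell by 0.57 and 1.63. Sirt3, a mitochondrial deacetylase, fell by 1.06. Nrf1 was not called (0.17). Of 24 genes for mitochondrial DNA maintenance and transcription 18 fell and 0 rose, with Tfam, which packages and transcribes that genome, at 31.3 ± 0.768 CPM in Uox_KO and 49.1 ± 1.72 CPM in Control (-0.65). In the same sections 20 of 38 proteasome subunits fell and 4 rose. Of 13 integrated stress response targets 10 rose and 2 fell, with Gdf15 at 2.87. The nuclear RNA Malat1, which is kept in the nucleus, had 266 ± 14.5 CPM in Uox_KO and 121 ± 25.9 CPM in Control. The part of RNA quality in the results was not tested.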

How the data were processed

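Fresh frozen kidney was cryosectioned at 10 µm and assayed with Visium. Each deposited matrix holds unnormalized UMI counts by gene and spot. The authors ran Space Ranger 1.3.1 with the mm10 build, according to the file headers and the submitters' processing notes. Genotype and replicate came from the labels; the names of the deposited files carry other replicate numbers, and the labels were followed. Reads that fit several copies of a gene, such as processed pseudogenes, cannot be separated in these counts.

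Counts were summed per section, filtered with filterByExpr, scaled with TMM and tested for Uox_KO against Control by the quasi-likelihood F test of edgeR 4.0.16 under R 4.3.3, with Benjamini-Hochberg adjustment over all genes tested at 0.05. CPM use TMM-scaled totals, and fold changes are log2. With 2 mice per genotype, p-values measure the spread between these sections. In simulated counts for 16099 genes, 50 genes above a minimum CPM were changed by each fold, as many up as down, and 15899 were unchanged. There the whole-section test recovered 24% of genes changed 1.25-fold and 90% of those changed 1.5-fold. In the sections 32.5% of genes were called lower and 34.6% higher, so these rates may not hold for them.

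For regions, spots of at least 500 UMIs went to the marker list (S1 and S2, S3, thick ascending limb, distal, collecting duct or glomerulus) with their highest percentile within the section, if at least 80, and counts were summed per region and section. Region by genotype was tested with the mouse as a block. Spots rich in fat (at least 0.5% of UMIs), urothelium (0.1%) or injured tubule markers (1%) were set after seeing their distribution. Sums and ratios have no test. Same-numbered sections were not taken as paired, since their deviations correlated at 0.0899.

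Members and gene lists were chosen with earlier results of these data known. Named were all mitochondrial and complex II members, paralogs, in each other complex the 3 nuclear members with the highest CPM and those with the largest called changes from 10 CPM, the assembly factor with the largest change, and up to 3 genes per list with the smallest p. Ndufs1, Ndufs6, Ndufa3, Uqcrb, Uqcrfs1, Atp5k, Atp5o, Cyc1, Esrra, Pprc1, Prkaa1, Prkaa2, Gabpa, Cs and Nrf1 were added after their values were seen. The S1 and S2 examples were added in the same way. Alternatives were DESeq2 1.42.0, no TMM, no filter, thinning, a replicate block, other spot sets and each section left out. The result of 1 member is not reported here.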

Additional observations from a re-analysis of the deposited data

Results flagged for a closer look

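For 83 nuclear members and for 13 mitochondrially encoded members, the difference between Uox_KO and Control differed between the 6 sets of marker-rich spots in the edgeR region by genotype test, against 39.2% of all genes tested. In each set the shares of injured tubule, myeloid and stroma markers were higher in both Uox_KO sections than in both Control sections, and the part of these in the differences was not tested. With 2 sections per genotype, no section was tested for standing apart from its group.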

How the results depend on the processing

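Without TMM, 42 nuclear members were lower and 5 higher and 5 mitochondrial members higher, and the log2 ratio of the sums was -0.18 (nuclear) and 0.23 (mitochondrial), as the scaling itself moved all genes up. On that scale Uqcr10 lay at 0.01957 (adjusted p 0.849), where all genes had a median of 0.27. Of the 48 tested named members under 13 alternatives, it was the 1 that changed sign while called in the main or the alternative fit. Changes of sign in members called in neither fit were not counted. Mitochondrial members lower in whole sections numbered 1 with DESeq2, 1 without the filter, 2 with the replicate block and 1 without fat and urothelium spots, and those higher numbered 5 with DESeq2, with the block and without fat, urothelium and injury spots. The block left 73 nuclear members lower. In S1 and S2 spots DESeq2 called 5 mitochondrial members higher. In thick limb spots 2 were higher at percentile 90, with the block and without fat, urothelium and injury spots, and in collecting duct spots 2 with DESeq2 and without those spots, where percentile 90 left 36 nuclear members lower. The cause was not tested. Leaving out 1 section at a time, which leaves the spread to the other sections, gave 57 to 79 nuclear members lower and 2 to 3 higher, 0 to 6 mitochondrial members lower and 1 to 6 higher in whole sections. Nuclear members lower, and mitochondrial members higher, ranged over 20 to 32 and 8 to 13 (S1 and S2), 7 to 48 and 2 to 12 (S3), 30 to 82 and 1 to 5 (thick limb), 23 to 59 and 3 to 12 (distal) and 14 to 83 and 1 to 5 (collecting duct), and in glomerulus spots 84 to 86 nuclear and 9 to 10 mitochondrial members were lower. The region by genotype test called 79 to 83 nuclear and 12 to 13 mitochondrial members. The log2 ratios of the sums ranged from -0.50 to -0.39 (nuclear) and from -0.20 to 0.12 (mitochondrial), and that of the nuclear to mitochondrial ratio from -0.51 to -0.30.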
